A study of Mus musculus with 7 samples.

Results

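The motile cilium axoneme genes described here were the genes whose symbol starts with Dnah, Cfap, Rsph or Tekt, 55 of the 31053 genes in the count matrices. They comprised 16 Dnah, 26 Cfap, 8 Rsph and 5 Tekt genes. The symbol rule itself used no measured value, but it was chosen with earlier results of these data known. One Dnah entry, Dnah2os, is named as an opposite-strand transcript of Dnah2 and not as a dynein. The study followed cultured hippocampal cells of newborn (P0) mice, whose strain, sex and genotype were not given, and no group received a treatment that the others lacked. Cells were freed with trypsin, plated on glass coated with poly-D-lysine in a medium with serum and B-27, and profiled by droplet sequencing of transcript 3' ends after 1 day in vitro (DIV1, 1 library) and after 3, 5 and 7 days (DIV3, DIV5 and DIV7, 2 libraries each). Whether replicate libraries came from separate cultures was not stated, so the p-values below measure only the spread between libraries, which may be technical.

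A motile cilium beats because rows of dynein motors make its outer microtubule doublets slide against each other. The axonemal dynein heavy chains (Dnah genes) are those motors, arranged as outer and inner arms. Radial spokes, whose heads and stalks include Rsph proteins, pass signals from the central pair of microtubules to the dynein arms. Tektins (Tekt genes) lie inside the doublets as part of their inner scaffold, and the cilia and flagella associated proteins (Cfap genes) are a mixed group of inner scaffold, docking, ruler and central pair components. In the brain, ependymal cells and choroid plexus epithelium carry such cilia. Ependymal cells grow many cilia each, and before that they multiply their centrioles, partly on deuterosomes, bodies that contain the Deup1 protein.

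Factors of the RFX and Foxj1 families are known regulators of these genes. The sequence upstream of members is shown as background, and its part in their changes with day was not tested. A RefSeq promoter (GRCm38.p6) was matched for 44 of the 55 members. Searched on both strands in the 250 bases upstream of the start site, the full RFX box (GTTNCC and GGNAAC with 2 free bases between them) was found in 0 of 44 members, against 0.444% of 27025 genes. A short form of its left side, GTTGCC, was found in 12 of 44 members (27.3%), against 11.8% of all genes. The forkhead motif TGTTTAC was found in 4 of 44 (9.09%), against 3.54% of all genes. These are matches of letters, not sites of binding. The 12 members with this short form were Cfap161, Cfap20, Cfap44, Cfap46, Cfap58, Cfap74, Dnah10, Dnah7a, Dnah7b, Dnah7c, Tekt1 and Tekt2, and the 3 Dnah7 genes are near copies of each other. Of these 12, Cfap20, Cfap58, Dnah7a, Dnah7c and Tekt2 were not called between DIV3 and DIV7 in the tests below. The windows of 4 members that recur below are given 5′ to 3′ on the gene's strand. All 4 were called higher at DIV7 than at DIV3. Capitals mark the short form, read as GGCAAC where it lies on the opposite strand.
Dnah10 (chr5:124725045-124725084, plus strand): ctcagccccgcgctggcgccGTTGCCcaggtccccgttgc
Cfap161 (chr7:83794853-83794925, minus strand): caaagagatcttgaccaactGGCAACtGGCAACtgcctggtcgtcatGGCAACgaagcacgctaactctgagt
Cfap74 (chr4:155409183-155409228, plus strand): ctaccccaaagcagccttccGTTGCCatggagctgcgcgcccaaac
Tekt1 (chr11:72361883-72361937, minus strand): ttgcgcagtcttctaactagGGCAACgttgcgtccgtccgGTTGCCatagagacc
The Cfap161 window held 3 matches and the Tekt1 window 2, 1 on each strand. Cfap74 had a further match upstream of the window shown. The windows of Dnah10 and Tekt1 ended at the start site.

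The 7 libraries held between 36226566 and 114119537 unique molecule counts (UMIs), and 26709 cells passed the limits of 500 or more detected genes and no more than 10% mitochondrial UMIs. Clusters whose leading genes included markers of ciliated cells, made without the 55 members among the clustering genes, held 2296 cells, or 8.60% of those kept. They are called ciliated cell-like. Of the 22 ciliated markers, 22 were detected in them, summed at 4422 to 9749 CPM (counts scaled to 1000000 UMIs) per library against 90.7 to 782 in all other cells. Ttr, the defining choroid plexus gene, stood at 0 to 13.2 CPM in the ciliated cell-like cells and at 4786 CPM in the choroid plexus-like cells. Not every choroid plexus marker was that low in the ciliated cell-like cells, where Calml4 stood at 60.6 to 182 CPM. The 12 choroid plexus markers (10 detected) summed to 112 to 272 CPM per library there. In all other cells, choroid plexus-like ones included, they summed to 101 to 345 CPM. The ciliated cell-like share of cells was 2.10% on DIV1, 3.17 and 1.87% on DIV3, 12.4 and 4.89% on DIV5 and 26.1 and 14.3% on DIV7. The class did not hold the same clusters at every day. Cluster 19 (248 cells, led by Crip1, Pvalb, Tppp3 and the interferon-related gene Irf7) held 76 of the 86 DIV1 cells and 157 of the 163 cells of DIV3 replicate 1. Cluster 22 (1255 cells) held 36 of the 53 cells of DIV3 replicate 2. Clusters 22 and 23 held nearly all DIV5 and DIV7 cells, and cluster 23 (793 cells) was led by Lrrc23 and Deup1.

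Members were concentrated in the ciliated cell-like cells. These cells held 7.32% of all UMIs and 46.8% of the members' UMIs. A ciliated cell-like cell had UMIs of 18 members at the median and any other cell 2. With each cell thinned to 3000 UMIs, which left out 121 ciliated cell-like and 1217 other cells, the medians were 7 and 1. The median depth of the ciliated cell-like cells and of all other cells was 11400.5 and 11771 UMIs. Clusters were made from these same cells, so the comparison is a description with no test.

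UMIs of each of the 55 members were found, and 51 members had at least 30 UMIs in the ciliated cell-like sums. The other 4 were Dnah8, Dnah17, Dnah2os and Rsph6a. Their mean levels in ciliated cell-like cells were 0.566, 0.0889, 0.250 and 0.123 CPM. Dnah8, Dnah17 and Rsph6a are known chiefly from sperm. Of 53 members with enough UMIs to compare, 44 were at least 4-fold higher in ciliated cell-like than in other cells, where 6.99% of all genes were. At 10-fold the members numbered 39 (3.12% of all genes). Over the 51 members with at least 30 UMIs in the ciliated cell-like sums, the median was 24.0-fold higher. That filter used the ciliated cell-like level alone, so members low in that class did not enter this median.

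The levels below are CPM of transcript 3' ends, which do not scale with transcript length but do depend on how well each 3' end is annotated. The highest was Rsph1, a radial spoke head protein, with a mean of 597 CPM in ciliated cell-like and 19.4 CPM in other cells. Thinned to 3000 UMIs, 68.5% of ciliated cell-like and 5.42% of other cells had an Rsph1 UMI, and unthinned 90.3% and 16.7%. Cfap126, also called Flattop, a microtubule inner protein, stood at 278 against 10.9 CPM. Tekt1 stood at 145 against 4.93 CPM. Among the dynein heavy chains, the outer arm motor Dnah9 was highest at 78.0 against 7.50 CPM, ahead of the inner arm motor Dnah6 at 60.2 against 1.59 CPM and the outer arm motor Dnah5 at 53.6 against 2.93 CPM. Dnah12, an inner arm chain, was 71.2-fold higher in ciliated cell-like cells, with UMIs in 10.5% of thinned ciliated cell-like and 0.0992% of thinned other cells.

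The symbol rule also took in genes that were not restricted to ciliated cells. The 9 members under 4-fold were Dnah7a, Cfap97, Cfap20, Cfap36, Dnah2os, Tekt5, Rsph3b, Rsph3a and Dnah8. Cfap20 stood at 113 CPM in ciliated cell-like and 57.4 CPM in other cells, and Cfap97 at 16.8 and 10.4 CPM. Cfap36 was the second highest member in ciliated cell-like cells at 391 CPM, and stood at 116 CPM in all other cells. Dnah7a, Dnah7b and Dnah7c, and likewise Rsph3a and Rsph3b, are near-identical copies whose reads the counting could have assigned unevenly, so their separate levels are uncertain.

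**Figure D1:**
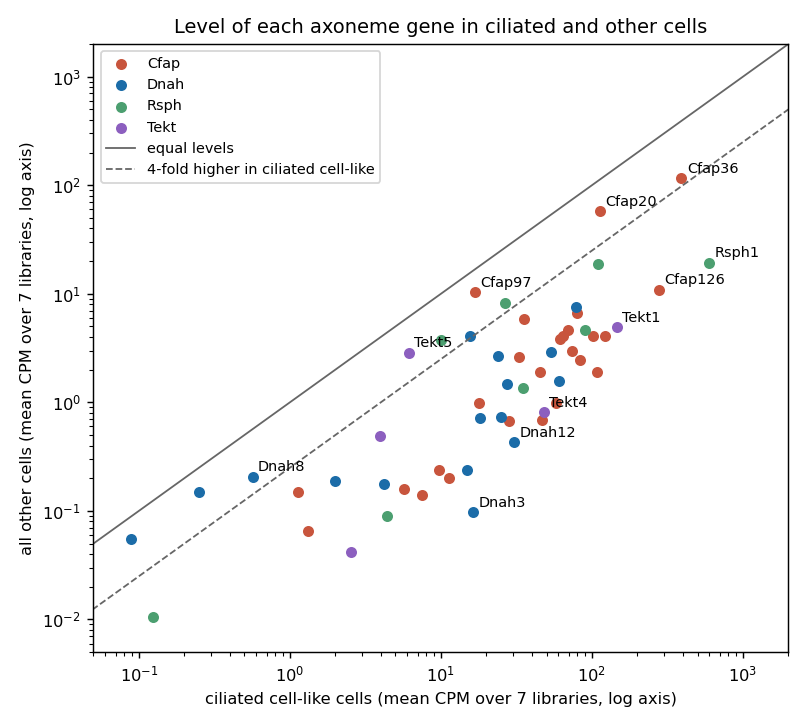
Mean level of each member in ciliated cell-like cells (x axis) and in all other cells (y axis), in CPM over 7 libraries on log axes, with points coloured by family. Most points lie below the dashed 4-fold line, and Cfap20, Cfap97, Cfap36 and Tekt5 are among those between it and the line of equal levels.

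Among the other cells, the choroid plexus-like cells (794 cells) had the highest level in CPM. All members together summed to 1031 ± 233 CPM there (SD, n = 7 libraries), 3312 ± 906 in ciliated cell-like, 410 ± 127 in radial glia or astrocyte-like (n = 6), 429 ± 110 in cycling (n = 6), 260 ± 20.7 in glutamatergic neuron-like (n = 7) and 140 ± 42.1 CPM in microglia or macrophage-like cells (n = 7). A few broadly found members made up much of the sums in neurons and microglia. In glutamatergic neuron-like cells Cfap36 stood at 96.8, Cfap20 at 60.0 and Rsph9 at 34.6 CPM. In microglia or macrophage-like cells Cfap20 stood at 36.9 and Cfap36 at 33.3 CPM. The choroid levels were not a uniform fraction of the ciliated ones. The next values cover 44 members with at least 100 UMIs in the ciliated cell-like sums, Cfap20 and Cfap97 left out. Members low in ciliated cell-like cells could not enter this set. The choroid level ranged from 1.78 to 417% of the ciliated level, with a median of 25.2%. The top of that range was Tekt5, at 25.5 CPM in choroid plexus-like and 6.12 CPM in ciliated cell-like cells, the only 1 of the 44 that was higher in the choroid class. Cfap126 reached 109 CPM and Rsph1 98.5 CPM in choroid plexus-like cells, whereas Tekt4 stood at 3.24 CPM there against 48.2 CPM in ciliated cell-like cells.

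Away from both of these classes, members were low but unequal between types. Rsph1 stood at 30.2 CPM in radial glia or astrocyte-like, 31.2 in cycling, 7.52 in microglia or macrophage-like and 4.77 CPM in glutamatergic neuron-like cells. Not every member followed that order. In the same order of types, Rsph9 stood at 22.7, 16.4, 3.97 and 34.6 CPM and Cfap43 at 3.56, 8.76, 4.29 and 11.6 CPM. Free RNA and doublets can add UMIs to these cells, and their part in the levels was not tested.

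Over days, the question here was in which order members came on. The member sum in ciliated cell-like cells was 3258 CPM on DIV1, 2141 and 2302 on DIV3, 3066 and 3627 on DIV5 and 4276 and 4513 on DIV7. DIV3 was therefore lowest and DIV7 highest, with no overlap between days from DIV3 on. Onset was taken as the earliest day whose mean reached 50% of the highest day mean. By that measure 35 of the 51 members were on at DIV1, and 2, 11 and 3 came on at DIV3, DIV5 and DIV7. Of all genes with at least 30 UMIs in these sums, 74.0% were on at DIV1 by the same measure and 16.1, 7.64 and 2.21% came on at DIV3, DIV5 and DIV7. A gene whose level does not change also counts as on at DIV1. With 25% in place of 50%, 47 members were on at DIV1 (88.0% of all genes). The single DIV1 library gives no spread for that day.

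The families differed in these counts, which are descriptions. Of the Rsph genes 6 of 7, of the Tekt genes 4 of 5 and of the Cfap genes 20 of 26 were on at DIV1, but of the Dnah genes 5 of 13. This difference depends on the cut of 50%. With 25% in its place 47 of the 51 members were on at DIV1. The members left were Cfap73, Cfap99, Dnah7a and Rsph4a, so Dnah7a was the only Dnah gene not on. The Dnah genes that reached 50% on DIV5 were Dnah5, Dnah6, Dnah7b, Dnah7c and Dnah9, and Dnah11 and Dnah12 did so at DIV7. The Cfap genes at DIV5 were Cfap46, Cfap54, Cfap61 and Cfap99, beside Rsph4a and Tekt4. Cfap157 reached it at DIV7, and Dnah7a and Cfap73 on DIV3. Some of these days rest on few UMIs. In the DIV1 and the 2 DIV3 libraries Cfap73 had 0, 2 and 2 UMIs, Cfap99 0, 1 and 0, and Dnah7c 2, 14 and 0. Dnah7a had 4 UMIs at DIV1. Tekt2, Tekt3 and Tekt5, counted as on at DIV1, had 10, 4 and 6 UMIs there. DIV7 was the highest day for 37 of the 51 members (31.3% of all genes), and 39 were higher in mean at DIV5 than at DIV3 and higher again at DIV7 (30.1% of all genes). Early levels were not a steady climb, since 42 of 51 members were lower at DIV3 than at both DIV1 and DIV7 (30.5% of all genes). The median member stood at 64.2% of its DIV7 level at DIV1 and at 38.5% on DIV3, and the median gene at 93.0 and 93.9%.

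In the culture as a whole, the order looked different. With all cells summed, 8 members had reached 50% of their highest day by DIV1, 1 on DIV3, 4 on DIV5 and 38 on DIV7. Of the same set of all genes 70.7% had reached it by DIV1 and 6.31% did so on DIV7. This sum moves with the share of ciliated cell-like cells given above, and fewer cells and less RNA per cell cannot be told apart in it.

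Between DIV3 and DIV7, edgeR's quasi-likelihood test on the ciliated cell-like sums found 29 of 50 tested members higher at DIV7 and 0 lower at an adjusted p under 0.05. Of all 12891 genes tested, 7.97% were higher and 7.42% lower. The median member changed by a log2 fold of 1.26 and the median gene by 0.01. By family, 10 of 13 Dnah, 13 of 25 Cfap, 4 of 7 Rsph and 2 of 5 Tekt genes rose. Both DIV7 libraries lay above both DIV3 libraries for 44 of 51 members, as they did for 34.2% of genes with at least 30 UMIs.

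Of the dynein heavy chains, Dnah3 and Dnah10, inner arm genes, changed the most. Dnah3 stood at 19.9 CPM on DIV1, 1.64 and 0 on DIV3, 13.5 and 17.4 on DIV5 and 29 and 32.7 CPM on DIV7. Its 2 DIV3 libraries had 5 and 0 UMIs, against 20 in the DIV1 library. From DIV3 to DIV7 it rose by 4.43 ± 0.48 (log2 fold, SE, adjusted p = 0.00072). Dnah10 stood at 17.9 CPM on DIV1, 1.31 and 1.51 on DIV3, 10.5 and 18.1 on DIV5 and 24.2 and 30.2 CPM on DIV7. The DIV3 libraries, with 4 and 1 UMIs, lay apart from all the others, and the rise to DIV7 was 4.21 ± 0.50 (adjusted p = 0.0011). Dnah3 and Dnah10 were also the only members called between DIV1 and DIV3, where both fell, by 3.80 on the log2 scale (SE 0.64, edgeR adjusted p = 0.023) and by 3.62 (SE 0.67, adjusted p = 0.031). In that comparison 0.659% of all genes were lower and 0.977% higher. Neither call remained without DIV3 replicate 1 or without DIV3 replicate 2, each of which left 0 members called, and the single DIV1 library is assumed to vary like the others.

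The other dynein motors rose less. Dnah6 had 49.7 CPM on DIV1, 23.6 and 15.1 on DIV3, 39.3 and 75.9 on DIV5 and 90.1 and 128 CPM on DIV7, a rise of 2.31 ± 0.38 (edgeR adjusted p = 0.0056). Dnah11, an outer arm motor, rose by 2.06 ± 0.32 (adjusted p = 0.0033), and the outer arm motor Dnah5 by 1.59 ± 0.30. Dnah9 rose too (adjusted p = 0.015). Dnah2, Dnah7b, Dnah1 and Dnah12 rose by 1.84, 1.53, 1.51 and 1.46. Dnah7a went the other way, at 3.98 CPM on DIV1, 18 and 34.6 on DIV3 and 16.1 and 11.9 CPM on DIV7, with a log2 fold from DIV3 to DIV7 of -0.80 ± 0.34 that did not pass (adjusted p = 0.13).

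Among tektins, Tekt4 had the smallest p of all members. It stood at 26.8 CPM on DIV1, 10.8 and 10.5 on DIV3, 51.3 and 66.0 on DIV5 and 77.8 and 93.8 CPM on DIV7. No library of 1 day overlapped with those of another, and the rise from DIV3 was 2.92 ± 0.29 (edgeR adjusted p = 0.00042). Tekt1, at 102 and 102 CPM on DIV3 and 157 and 189 on DIV7, rose by 0.69 ± 0.21 (adjusted p = 0.049), from a DIV1 level of 176 CPM. The Tekt1 call was lost in 16 of 23 alternatives, among them DESeq2 (adjusted p = 0.0889). Tekt5 had -0.85 ± 0.43 (adjusted p = 0.19), Tekt2 0.26 ± 0.62 and Tekt3 2.18 ± 0.87 (adjusted p = 0.11), so these 3 did not pass.

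Of the radial spoke genes, Rsph1 stood at 621 CPM on DIV1, 289 and 333 on DIV3, 506 and 814 on DIV5 and 766 and 849 CPM on DIV7, rising by 1.32 ± 0.25 (edgeR adjusted p = 0.0079). Rsph4a and Rsph10b, also counted with the spoke head, rose by 1.48 ± 0.28 and 1.56 ± 0.33. Rsph9, another head protein, was level, at 90.5 and 87.4 CPM on DIV3 and 96.4 and 113 on DIV7 (0.17 ± 0.22, adjusted p = 0.65). The spoke head genes thus did not all pass together.

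The Cfap genes spread widely. Cfap65 rose by 2.01 ± 0.28, the central pair gene Cfap54 by 1.63 ± 0.23, Cfap74 by 1.60 ± 0.28, Cfap77 by 1.48 ± 0.27 and Cfap161 by 1.46 ± 0.23 (edgeR adjusted p between 0.002 and 0.0066). Cfap126 did not pass, at 209 CPM on DIV1, 294 and 259 on DIV3 and 278 and 372 on DIV7 (0.17 ± 0.24, adjusted p = 0.67). Neither did Cfap36 (0.48 ± 0.28), Cfap45 (0.23 ± 0.21), Cfap206 (0.70 ± 0.22, adjusted p = 0.056), Cfap20 (0.18 ± 0.20) or Cfap97 (-0.35 ± 0.35).

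**Figure D2:**
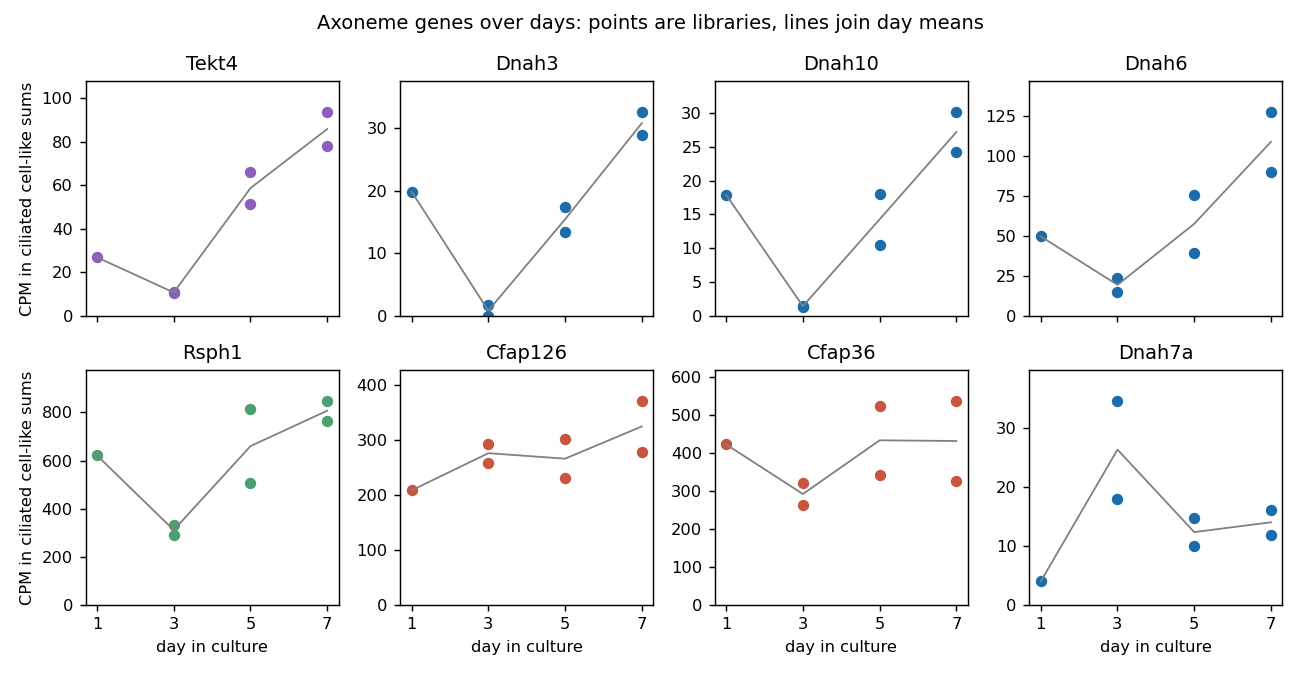
CPM of 8 members in the ciliated cell-like sums (y axes, each from 0) against day in culture (x axis); points are libraries and lines join day means. Tekt4, Dnah3, Dnah10, Dnah6 and Rsph1 are lowest at DIV3 and highest at DIV7 in mean, while Cfap126 is nearly level and Dnah7a is highest at DIV3.

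**Figure D3:**
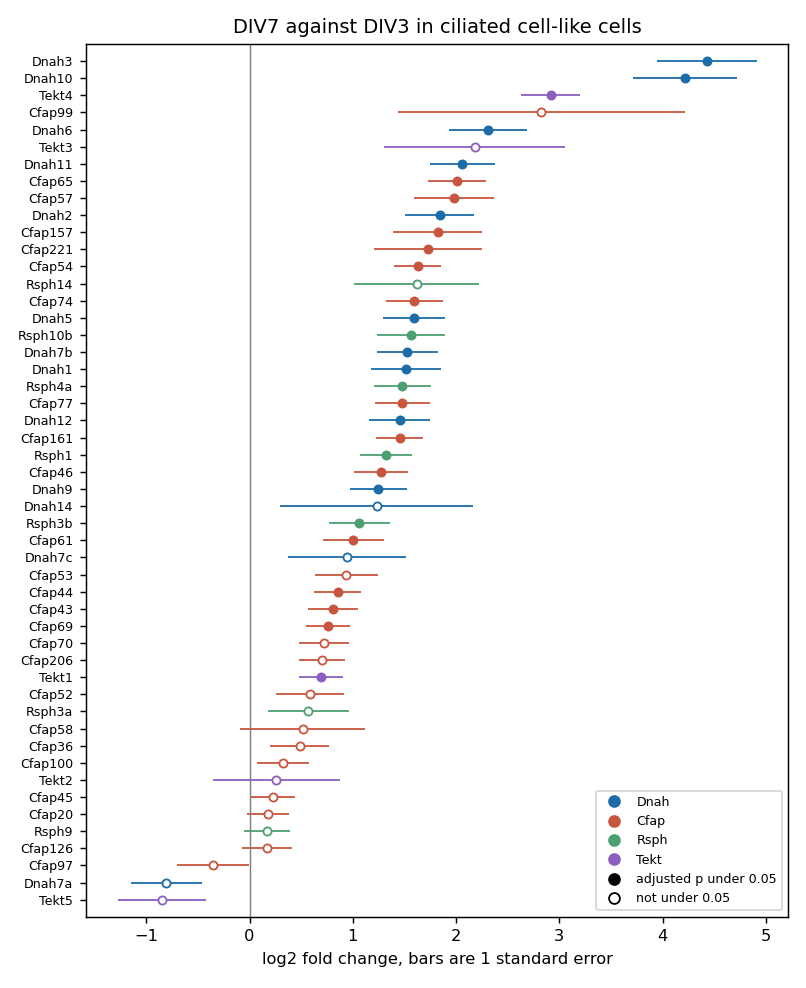
Log2 fold change from DIV3 to DIV7 in ciliated cell-like sums for the 50 members tested (x axis, bars 1 standard error), filled where the edgeR adjusted p was under 0.05. The 29 filled points all lie to the right of 0, with Dnah3 and Dnah10 farthest.

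The number of calls depended on single libraries. Without DIV3 replicate 1, 2 members were called, Dnah3 and Tekt4. Leaving out DIV3 replicate 2 gave 24 calls. Of the DIV7 libraries, leaving out replicate 1 gave 22 calls and leaving out replicate 2 gave 16. Without cluster 19 the DIV1 and DIV3 replicate 1 sums fell under 20 cells and dropped out, and 0 of 51 members were called, with Tekt4 at 2.74 and Rsph1 at 1.36. DESeq2 called 21. Other markers moved with day in the same sums. All 15 radial glia or astrocyte markers were detected, and their sum was 5529 CPM on DIV1, 8783 and 13957 on DIV3 and 18409 and 22758 on DIV7, while the 10 mural markers (8 detected, with Abcc9 and Higd1b at 0 and Kcnj8 and Vtn near 0) went from 1859 on DIV1 and 1420 to 1712 on DIV3 to 230 to 260 CPM on DIV7, nearly all of it Acta2 and Tagln. Mt3 and Gfap made up 56.8% of the radial glia or astrocyte sum on DIV1 and 73.2 and 75.1% on DIV7. Not every marker of that list followed the sum, and Tnc stood at 241 CPM on DIV1 and at 113 and 72.2 CPM on DIV7. The part of these markers in the member results was not tested.

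DIV3 to DIV5 and DIV5 to DIV7 divide that interval. From DIV3 to DIV5, 3 members rose, Tekt4 (2.38 ± 0.29, edgeR adjusted p = 0.0046), Dnah3 (3.41 ± 0.52) and Dnah10 (3.21 ± 0.55), where 1.23% of all genes were higher and 0.846% lower. With the replicate number as a block 15 of 48 members were called, where 10.9% of all genes were, and without DIV3 replicate 1 0 were. From DIV5 to DIV7, 0 members and 0% of all genes were called by edgeR, although 22 members and 1298 genes had an unadjusted p under 0.05. The members' median was 0.54 there, and with the replicate block 14 of 48 were called, where 3.23% of all genes were.

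Genes that work with the members were read from 8 lists in the same DIV3 to DIV7 comparison, and no gene of any list was lower. Hydin, Spag6l, Spef2, Ak7, Nme5, Enkur, Dynlrb2 and Foxj1 of these lists were also among the 22 ciliated markers used to name the class. List genes, unlike the members, were not kept out of the clustering, so they are not independent of the choice of cells. Of all genes tested 7.97% were higher and 7.42% lower. Of 8 other axonemal dynein subunits 3 rose, and of 15 docking, ruler and nexin-dynein regulatory complex genes 6. Of 15 central pair and spoke partners 5 rose, and of 11 genes listed as other microtubule inner proteins 4. The medians of these 4 lists were 0.71, 0.77, 0.83 and 0.81, against 0.01 over all genes. The last of them also held Pltp, a phospholipid transfer protein that is not known as an inner protein. Hydin, a central pair protein, rose by 2.26 ± 0.28 and Drc3, of the regulatory complex, by 1.82 ± 0.24. Of 15 dynein preassembly factors, which fold dyneins in the cytoplasm, 5 rose, among them Zmynd10 (1.97 ± 0.25). Of 18 centriole amplification genes 9 rose, with Deup1 at 2.95 ± 0.42 and Ccdc78 at 4.55 ± 0.49, and of 17 multiciliation regulators 8, with Myb at 2.86 ± 0.27 and Foxj1 at 1.05 ± 0.23. Of 24 intraflagellar transport genes, which build cilia of every kind, 5 rose and the median was 0.46. The edgeR adjusted p of each gene named here was at most 0.0141. Foxj1 stood at 546 CPM on DIV1, 452 and 676 on DIV3, 1216 and 1015 on DIV5 and 1260 and 1155 on DIV7 in these sums.

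Outside the ciliated cell-like cells, 21 of 49 members rose from DIV3 to DIV7 and 0 fell (7.71% of all genes were higher and 7.95% lower), at much lower levels. Dnah5, for example, stood at 0.199 CPM on DIV1, 0.507 and 0.994 on DIV3, 3.33 and 1.86 on DIV5 and 6.43 and 7.2 CPM on DIV7 in the other cells. Of the 21 members, 19 were also called in the ciliated cell-like sums. The 22 ciliated markers moved with them, summing in the other cells to 90.7 CPM on DIV1, 247 and 193 on DIV3, 600 and 272 on DIV5 and 782 and 655 on DIV7. The 44 members with at least 100 UMIs in the ciliated cell-like sums, Cfap20 and Cfap97 left out, were admitted by their ciliated level. Their median level in other cells was 1.16% of the ciliated level at DIV1 and 2.70 and 2.61% on DIV3. It was 6.93 and 1.95% on DIV5 and 6.84 and 5.13% on DIV7. DIV5 replicate 1 and both DIV7 libraries, which had the most ciliated cell-like cells, were the highest. The other cells also held the choroid plexus-like cells and, in some libraries, cells with many ciliated markers. At least 10 of these markers were found in 240 cells of DIV3 replicate 1 and 916 of DIV7 replicate 1. The class held 163 and 772 cells there. On DIV1 the numbers were 84 and 86, and in DIV5 replicate 2 188 and 189. The part of such cells, of free RNA and of doublets in this was not tested. Without DIV3 replicate 1 or DIV7 replicate 2, 0 members were called, and without DIV3 replicate 2 or DIV7 replicate 1, 4 were.

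With all cells summed, 41 of 54 tested members were higher at DIV7 and 0 lower (11.4% of all genes were higher and 11.7% lower), with a median log2 fold of 2.87. Dnah3 rose by 6.94 ± 0.85 and Dnah10 by 5.71 ± 0.57. Without DIV3 replicate 1, 0 members were called.

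The change from DIV3 to DIV7 itself differed between ciliated cell-like and other cells for 4 of 52 members, 2 higher and 2 lower. That share is near the one of all genes, of which 5.63% were higher and 2.24% lower. In the ciliated cell-like cells Cfap36 and Cfap20 changed by 0.90 ± 0.18 and 0.79 ± 0.21 more on the log2 scale (edgeR adjusted p = 0.0053 and 0.028), and Cfap54 and Dnah5 by -1.77 ± 0.37 and -1.44 ± 0.34 (adjusted p = 0.012 and 0.016). For the latter pair both classes rose, the other cells from a level near 1 CPM or below.

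Ciliated cell-like cells with UMIs of genes known from the deuterosome stage were compared with the rest of the class within libraries. A ciliated cell-like cell was gated when it had at least 2 UMIs over Deup1, Ccno, Cdc20b, Mcidas and Gmnc, none of which is a member. Centrioles were not observed, and the ungated cells may lie before or after that stage. The comparison therefore gives no order in time. The gate took 794 cells and left 1502, and 637 of the 794 lay in cluster 23. Gated cells were deeper, at a median of 13232 against 10319.5 UMIs. Sums of both kinds of cell were compared within 6 libraries with the library as a block, DIV3 replicate 2 having too few gated cells.

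Members moved in both directions. Of 46 tested, edgeR's quasi-likelihood test called 11 higher in gated cells and 9 lower, where 13% and 12.8% of all genes were. The median log2 fold was -0.02 for members and -0.03 for all genes.

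Higher in gated cells were Dnah3 (0.95 ± 0.16), Rsph3a (0.95 ± 0.23), Cfap36 (0.86 ± 0.13), Dnah10 (0.73 ± 0.17), Tekt4 (0.72 ± 0.14), Cfap45 (0.55 ± 0.12), Rsph1 (0.41 ± 0.10), Rsph3b, Dnah12, Cfap74 and Cfap206, the edgeR adjusted p running from 0.00012 to 0.036. Cfap36 stood at 474, 405, 678, 495, 773 and 551 CPM in the gated cells of DIV1, DIV3 replicate 1, both DIV5 and both DIV7 libraries. In the other ciliated cell-like cells of those libraries it stood at 414, 308, 334, 274, 336 and 201 CPM, lower in 6 of 6. Tekt4 stood at 55.8, 2.72, 62.4, 75.6, 106 and 136 CPM in gated and 22.0, 11.9, 37.6, 61.6, 53.9 and 70.6 CPM in other ciliated cell-like cells. It was higher in 5 of 6 libraries, the exception being DIV3 replicate 1 with 18 gated cells.

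Lower in gated cells were Dnah11 (-0.67 ± 0.14), Cfap53 (-0.66 ± 0.14), Cfap77 (-0.61 ± 0.15), Cfap52 (-0.60 ± 0.11), Dnah6 (-0.52 ± 0.12), Rsph10b (-0.48 ± 0.15), Rsph4a (-0.43 ± 0.12), Dnah9 (-0.37 ± 0.12) and Cfap54, the edgeR adjusted p running from 0.00028 to 0.041. Dnah11 stood at 6.98, 8.16, 11.4, 15.9, 33.9 and 40.4 CPM in gated and 22.0, 9.70, 19.7, 26.3, 52.5 and 54.6 CPM in other ciliated cell-like cells, lower in 6 of 6 libraries. Cfap52 stood at 55.8, 38.1, 25.4, 53.7, 92.1 and 82 CPM in gated and 55.6, 57.8, 45.7, 79.7, 127 and 114 CPM in other ciliated cell-like cells. It was lower in 5 of 6 libraries, DIV1 being the exception.

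Both sides cut across the families. The inner arm genes Dnah3, Dnah10 and Dnah12 were higher and the outer arm genes Dnah9 and Dnah11 lower, but so was the inner arm gene Dnah6. The call of Dnah12 was lost in 6 of 10 alternatives and that of Dnah9 in 5 of 10. Rsph3b lost its call in 6 of 10, and Cfap74 and Rsph10b in 4 of 10 each. Every other call was lost in at most 3. Of the spoke head genes, Rsph1 was higher and Rsph4a and Rsph10b lower. Of the members called higher at DIV7 than at DIV3, 7 were higher and 7 lower in gated cells. Without DIV7 replicate 1 the test called 8 members, and without DIV7 replicate 2 13. With each cell thinned to 3000 UMIs after gating it called 13.

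**Figure D4:**
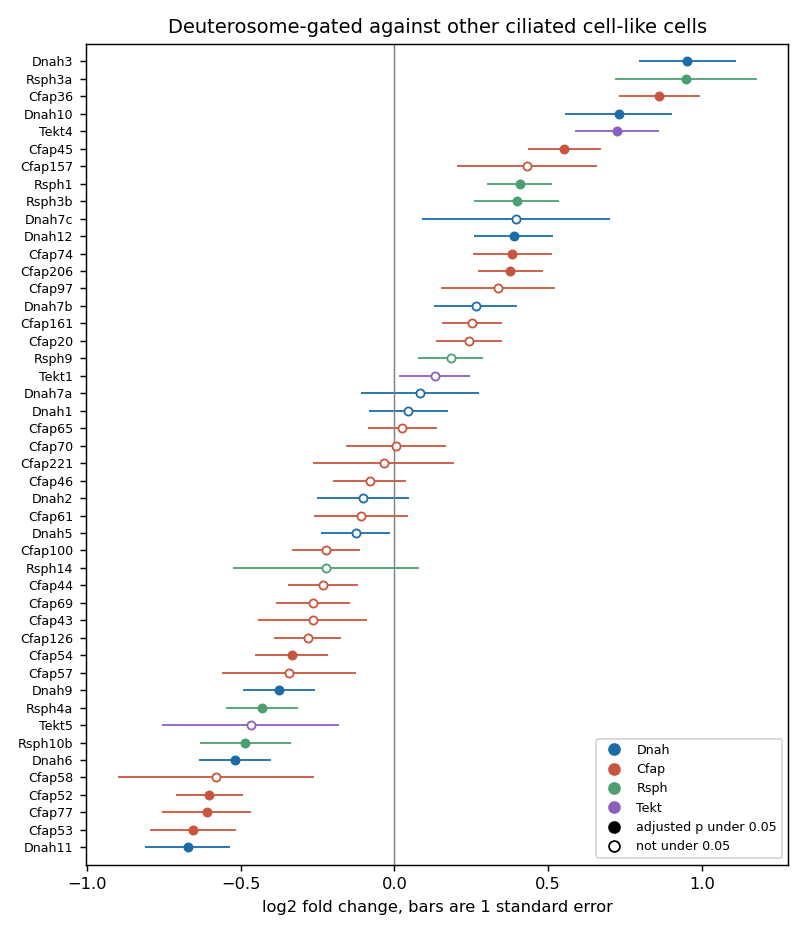
Log2 fold change of deuterosome-gated against other ciliated cell-like cells for the 46 members tested (x axis, bars 1 standard error), filled where the edgeR adjusted p was under 0.05. The 11 filled points to the right of 0 run from Cfap206 to Dnah3 and the 9 to the left from Cfap54 to Dnah11.

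In the same comparison, where 13% of all genes were higher and 12.8% lower, the partner lists gave the following counts. Of 15 dynein preassembly factors 9 were higher and 0 lower in gated cells, with a median of 0.76, led by Tbc1d31 (1.27 ± 0.13), a protein better known from centriolar satellites, Ruvbl2 (1.07 ± 0.11) and Zmynd10 (1.06 ± 0.13). Of 23 intraflagellar transport genes 6 were higher, among them Ift20 (0.58 ± 0.10), and 1, Ttc30b, was lower. Of the 11 genes in the list of other microtubule inner proteins 1 was higher and 2 lower. These 2 were Fam166b (-0.98 ± 0.18) and Pltp (-0.45 ± 0.12), a phospholipid transfer protein that is not known as an inner protein. Among 7 other dynein subunits Dynlrb2, also a ciliated marker used to name the class, was higher (0.48 ± 0.09) and Nme8 lower (-0.91 ± 0.22). The edgeR adjusted p of each gene given a value here was at most 0.0083, and the centriole and regulator lists, which hold the gate genes, are not read.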

How the data were processed

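Single-cell libraries (10x 3' v2, per the labels' protocols) were deposited as matrices of whole-number UMI counts per gene and barcode. Per the submitters' processing notes the authors used Cell Ranger 4.0.0 with mm9, whereas per the file headers the software version was 3.0.2, so no gene coordinates of the counts are given. Groups came from the labelled day. The members and lists were chosen with earlier results of these data known.

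Cells under 500 genes or over 10% mitochondrial UMIs were left out. The rest were clustered (scanpy 1.11.5, Python 3.11.15, 2000 variable genes without the members, 30 components, 15 neighbours, Leiden resolution 1) and named from marker lists, at least 3 detected markers being needed. Scrublet called under 0.5% of cells in 5 of 7 libraries and was treated as not having worked, so doublets were kept. Libraries shared between 12 and 37 barcodes, near the number expected by chance. UMI counts were summed per library and class (at least 20 cells, 10 for gated sums) and tested with edgeR 4.0.16 in R 4.3.3 (TMM scaling, filterByExpr, quasi-likelihood F test, two-sided, Benjamini-Hochberg over all genes tested, called under 0.05). The 7 libraries entered 1 fit with a mean per day and no term for the replicate number. The fits were tested on simulated data. Alternatives were DESeq2 1.42.0, other scalings, filters, clusterings, depths and libraries.

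DIV3, DIV5 and DIV7 share replicate numbers in the labels. Deviations of same-numbered libraries from their day means correlated at 0.157 (DIV3 and DIV5), 0.169 (DIV3 and DIV7) and 0.398 (DIV5 and DIV7) in the ciliated cell-like sums, all above 0.1, so the numbers were taken to pair the libraries. The main tests between days nevertheless ignored this pairing. It entered those tests only as the replicate block, an alternative that called more members from DIV3 to DIV5 and from DIV5 to DIV7.

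Named members were the 6 highest of each family, those called between days (up to 12 by p), the 6 at each end of the deuterosome comparison, members near equal in other cells and the 6 earliest and latest, and from each list up to 3 called genes. Others named (Dnah7b, Dnah8, Dnah17, Dnah2os, Rsph6a, and members of a full list of calls or onset days) were chosen after their values were seen.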

Additional observations from a re-analysis of the deposited data

Results flagged for a closer look

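In 4 members the change from DIV3 to DIV7 differed between ciliated cell-like and other cells by the test of the difference itself (edgeR, library as a block). These were 4 of 52 members tested, near the share of all genes (5.63% higher and 2.24% lower). The difference was 0.90 on the log2 scale for Cfap36, 0.79 for Cfap20, -1.77 for Cfap54 and -1.44 for Dnah5. Cfap36 and Cfap20 are the 2 of these with high levels outside the ciliated cell-like cells. No alternative was run for this test, and no group held enough libraries to look for a single outlying one.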

How the results depend on the processing

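No result reversed. The 29 members called from DIV3 to DIV7 in ciliated cell-like sums became 11 with stricter cell filters (which left DIV3 replicate 2 with 9 such cells), 15 with cells thinned to 3000 UMIs, 14 with day as a number, 0 without the cluster of DIV1 and DIV3 replicate 1 (an alternative chosen after seeing the data, as was a 10-marker class), and 2 to 27 when leaving out 1 library; the other alternatives gave 21 to 38. Leaving out 1 library gave 0 to 4 from DIV3 to DIV5, 0 to 3 from DIV1 to DIV3 (chosen after seeing the data), 0 to 25 in other cells, 0 to 41 in all cells and 8 to 22 in the deuterosome comparison, which also gave 13 with a gate of 1 UMI and 13 with thinned cells. The replicate block gave 15 from DIV3 to DIV5 and 14 from DIV5 to DIV7 and moved no other count by over 1.5 times (32, 31 and 42). DIV3 replicate 2 had the fewest ciliated cell-like cells (53) and the fewest UMIs in their sum (663911).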
